A study of Mus musculus with 6 samples.

Results

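Respiratory complex I genes were followed in mouse dendritic cells after and before a stay on spleen stroma. The members were the rows of the deposited gene table whose symbol starts with Nduf, 45 of 15282 genes. Of these, 36 encode subunits of complex I (7 core and 29 accessory) and 7 encode Ndufaf assembly factors. The other two, Ndufa4 and Ndufa4l2, carry the family name but lie outside complex I as it is now defined. Bone marrow of wild type C57/BL6 mice was the source of both groups, with 6 days of GM-CSF and IL-4, 24 hours of bacterial lipopolysaccharide (LPS) and bead selection for CD11c, a surface integrin of dendritic cells. The diffDC group then spent 9 days in coculture with spleen stroma cells, and the maDC group was taken without it. The labels give 3 libraries per group, but the table holds 1 pooled read number per gene and group, so no difference below has a replicate check and no p-value is given. The sources used here do not state whether stroma cells were removed from diffDC before extraction, nor the age or sex of the mice.

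Complex I is the entry point of the respiratory chain. It takes electrons from NADH through a flavin and a row of iron-sulfur clusters to ubiquinone and pumps protons across the inner mitochondrial membrane. The N module oxidises NADH, the Q module reduces ubiquinone, and the proximal and distal membrane arms carry the proton channels, whose core proteins are encoded in mitochondrial DNA. Accessory subunits surround this core, and assembly factors act on the parts while they are joined and leave the finished enzyme. In macrophages and dendritic cells, LPS is known to move energy supply from respiration towards glycolysis, which makes complex I a common subject of study there.

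The start regions of 4 genes are shown because the results turn on these genes. Ndufa12 had the largest rise among members, Ndufaf4 and Ndufaf3 are partner assembly factors that went opposite ways, and Ndufa7 was listed at 0 in diffDC. Each is the 250 bases before the RefSeq start on GRCm38.p6, 5′ to 3′ on the gene's strand, at chr10:94198785-94199034 (plus strand), chr4:24897833-24898082 (plus), chr9:108567437-108567686 (minus) and chr17:33824322-33824571 (plus). Capitals mark matches on either strand to the letters of SP1, GGGCGG, and of NRF1, a regulator of respiratory genes, which are GCGC and TGCGC with any single base between them.
Ndufa12: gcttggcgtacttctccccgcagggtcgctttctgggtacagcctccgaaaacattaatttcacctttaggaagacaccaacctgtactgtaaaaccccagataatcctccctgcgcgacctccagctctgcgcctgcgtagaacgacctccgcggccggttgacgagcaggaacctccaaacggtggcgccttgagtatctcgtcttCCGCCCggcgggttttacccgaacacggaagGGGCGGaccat
Ndufaf4: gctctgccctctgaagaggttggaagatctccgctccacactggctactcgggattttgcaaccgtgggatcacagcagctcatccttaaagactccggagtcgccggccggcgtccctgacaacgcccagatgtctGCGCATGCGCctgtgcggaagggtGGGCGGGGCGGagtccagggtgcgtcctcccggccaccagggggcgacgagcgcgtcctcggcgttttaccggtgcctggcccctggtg
Ndufaf3: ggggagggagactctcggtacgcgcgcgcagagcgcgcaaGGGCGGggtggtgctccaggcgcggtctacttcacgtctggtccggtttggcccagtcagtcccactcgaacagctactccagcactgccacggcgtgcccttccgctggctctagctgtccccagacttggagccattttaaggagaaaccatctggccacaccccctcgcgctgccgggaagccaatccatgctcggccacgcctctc
Ndufa7: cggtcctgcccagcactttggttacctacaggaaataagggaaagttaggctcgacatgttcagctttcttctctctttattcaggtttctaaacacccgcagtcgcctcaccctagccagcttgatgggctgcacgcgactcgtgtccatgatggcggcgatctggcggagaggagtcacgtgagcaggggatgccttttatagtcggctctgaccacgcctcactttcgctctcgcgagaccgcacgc
The Ndufa12 window lies inside the gene as GENCODE M21 places it, since the RefSeq start used for it is downstream of the GENCODE start. It held SP1 letters 42 and 11 bases before the start, and that of Ndufaf3 held them 210 bases before it. Ndufaf4 had the NRF1 letters 113 bases before the start and overlapping SP1 letters at 89 and 84 bases. Neither motif was in the Ndufa7 window, which opens head to head with the ribosomal protein gene Rps28, whose start lies 10 bases away in GENCODE M21. Windows of 300 bases, which run 50 bases past the start, were given by RefSeq for 39 of the 45 members. The NRF1 letters were in 9 of the 39 (23.1%), against 5.19% of 27025 genes with a window. The letters AAGATGGC of YY1 were in 7 (17.9%), all of them subunits, against 3.19%. GGGCGG was in 20 (51.3%) against 38.2%, CCGGAAG of ETS factors in 5 (12.8%) against 9.93%, and TNAAGGTCA of estrogen-related receptors in 1 (2.56%) against 1.43%. Both strands were searched. Member windows were richer in G and C than all windows over the 250 bases before the start, at a median of 58.0% against 52.4%. A match is a description of letters and not a binding site.

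The pools held 89836110 reads in diffDC and 69190437 in maDC. Reads were scaled with TMM factors, which put the diffDC library above the maDC library by 0.56 on the log2 scale. A gene was called higher or lower in diffDC when its scaled reads differed by 2-fold or more and its 95% counting interval did not include equality. The intervals hold counting error alone; PCR copies and differences between cultures are outside them. On this scale the median of all genes was 0.03. The library factor in the authors' deposited log2 ratios was smaller and moves every gene up by 0.44, so each log2 ratio below would be higher by that amount with it. In pooled cells of this kind, a smaller number of expressing cells and less RNA per cell cannot be told apart.

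Most of the family lay within 2-fold between the pools. Of 45 members, 5 rose and 2 fell, 15.6% of them, while 44.3% of all genes were called. Higher calls made up 11.1% of members and 23.3% of all genes, and lower calls 4.44% and 20.9%. In the 9957 genes whose CPM (depth-scaled reads) averaged 5 or more over the pools, 40 of them members, 37.6% were called, 20.8% higher and 16.8% lower. With the authors' library factor the members split into 11 higher and 1 lower, while 47.9% of all genes were called, 32.2% higher and 15.7% lower (4915 and 2400 genes, against 3562 and 3201 under TMM). The quartiles of the subunits' log2 ratios were -0.05 and 0.50, and those of all genes -0.90 and 0.998. The subunits held 130371 reads in diffDC, 0.145% of the pool (exact interval 0.144% to 0.146%), and 78043 in maDC, 0.113% (0.112% to 0.114%).

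**Figure D1:**
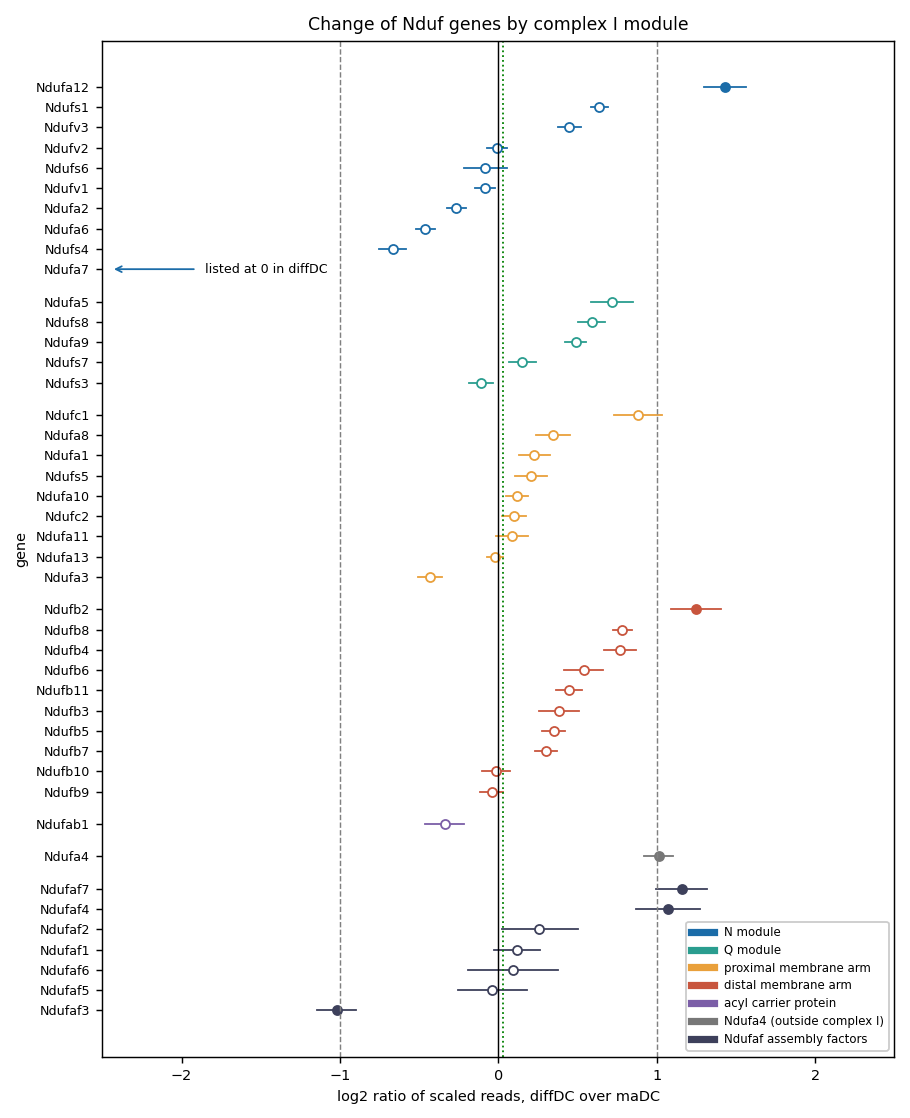
Log2 ratio of scaled reads in diffDC over maDC for Nduf genes, grouped by module, with 95% counting intervals; filled points passed the call, dashed lines mark 2-fold and the dotted line the median of all genes, 0.03. Most points lie between the dashed lines, Ndufa12 (1.43) and Ndufb2 (1.25) lie beyond them, Ndufa7 is listed at 0 in diffDC, and Ndufa4l2, with 3 reads in each pool, is not drawn.

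Among the 10 N module genes, which form the NADH-oxidising tip, 1 rose, 1 fell and 8 were not called, with a median log2 ratio of -0.08 that was 0.35 with the authors' factor. Ndufa12, an accessory subunit added late in assembly (Entrez 66414, chromosome 10, 94198720 to 94221443 on GRCm38), had 2265 reads in diffDC and 569 in maDC. It rose 2.70-fold (interval 2.46 to 2.96), a log2 ratio of 1.43, the largest in the family, under every scaling tried. Of the 50-base words in its GENCODE transcripts, 17.7% are shared with Gm15920, so reads could have been divided between them.

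The 3 core subunits of this module did not move together. Ndufs1, the largest iron-sulfur subunit, had 8959 reads in diffDC and 3899 in maDC, a log2 ratio of 0.64 (interval 0.58 to 0.69). Ndufv1, which binds NADH and the flavin, had 4932 reads in diffDC and 3537 in maDC, a ratio of -0.08 (interval -0.15 to -0.02). Its iron-sulfur partner Ndufv2 had 4782 and 3260 reads in diffDC and maDC, a ratio of -0.01. The interval of Ndufs1 lay above those of the other two, so the spacing is larger than counting error, whatever the library factor. Measured per length within each pool, Ndufs1 stood at 1.06 times the level of Ndufv1 in diffDC and at 0.644 times in maDC.

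The lowest N module value with reads in both pools was that of Ndufs4, an accessory subunit whose loss destabilises the module and is a model of Leigh syndrome in mice. It had 2177 reads in diffDC and 2342 in maDC, a log2 ratio of -0.67 (interval -0.75 to -0.58) that was -0.23 with the authors' factor, and it was not called. Ndufa6 had 4637 reads in diffDC and 4324 in maDC, a ratio of -0.46, and Ndufa2 had 4572 and 3719, a ratio of -0.26, which was 0.17 with the authors' factor. Ndufv3 and Ndufs6 had ratios of 0.45 and -0.08. The order of Ndufa12 and Ndufs4 turned over between the pools. Per length, Ndufa12 was 2.84 times as abundant as Ndufs4 in diffDC and 0.664 times as abundant in maDC, a comparison that no library factor enters.

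Ndufa7, a small accessory subunit (chromosome 17, 33824572 to 33838317), was listed at 0 in diffDC and had 66.45 reads in maDC. With 3 reads over the pool set in place of the 0, it was 32.7-fold lower as a ratio of reads. Its counting interval reached to 25.7-fold lower, so 32.7 is not a lower bound. Its maDC level was 1.94 scaled RPKM (reads per kilobase of the deposited gene length, on TMM-scaled libraries), the lowest of the 36 subunits, whose next lowest, Ndufa11, stood at 7.85. The level of Ndufa11 divides by a deposited length of 2661 bases, while its GENCODE M21 exons cover 1092, so its low rank rests on that length. Ndufa6, in the same module as Ndufa7, was 61.2 times as abundant per length in maDC. Of the 50-base words of Ndufa7, 0.462% occur in other genes. Its read number is not whole, and a listed 0 can be a failed estimate, so the value of Ndufa7 is given as listed and is not read as loss of the transcript.

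None of the 6 Q module genes was called, and their median log2 ratio was 0.32. Ndufs7, an iron-sulfur core subunit next to the quinone site, had 2965 reads in diffDC and 1809 in maDC, a ratio of 0.15. Ndufs8, an iron-sulfur core subunit, had 3694 reads in diffDC and 1663 in maDC, a ratio of 0.59. Ndufs3, also a core subunit, had 3282 and 2399 reads in diffDC and maDC, a ratio of -0.11. The accessory genes Ndufa5 and Ndufa9, the second of which sits where the arms meet, had ratios of 0.71 and 0.49. With the authors' factor Ndufs8 and Ndufa5 passed, at 1.02 and 1.15, and Ndufs3 turned to 0.32. Over the 7 core subunits of both modules none was called, and 4 had ratios above 0, which were all 7 with the authors' factor.

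The 9 proximal membrane arm genes included no call, with a median log2 ratio of 0.12. Ndufc1 came nearest to the limit with 1307 reads in diffDC and 481 in maDC, a ratio of 0.88 (interval 0.73 to 1.03), and it passed with the factor from total reads and with that of the authors. Ndufa8 and Ndufs5, which fold through paired cysteines in the intermembrane space, had ratios of 0.34 and 0.21. Ndufa13, also called GRIM-19 and linked to cell death and STAT3, had 7146 reads in diffDC and 4913 in maDC, a ratio of -0.02. Ndufa1, Ndufa10, Ndufc2 and Ndufa11 had ratios between 0.09 and 0.23. Ndufa3 was lowest, with 2841 reads in diffDC and 2594 in maDC, a ratio of -0.43 that came to 0.00 with the authors' factor.

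The distal membrane arm, the Ndufb genes, had the highest module median, 0.41, with 1 of 10 called and 8 of 10 above 0. Ndufb2 (Entrez 68198, chromosome 6, 39592574 to 39603382) had 1460 reads in diffDC and 417 in maDC, and it rose 2.37-fold (interval 2.12 to 2.65), a log2 ratio of 1.25. Its exons share 2.59% of their bases with those of Braf on the other strand. Ndufb8 had 7843 reads in diffDC and 3087 in maDC, a ratio of 0.78 (interval 0.72 to 0.84). Ndufb4 had 2790 reads in diffDC and 1109 in maDC, a ratio of 0.77. Both stayed under the limit here and passed with the authors' factor, at 1.22 and 1.20. Ndufb6, Ndufb11, Ndufb3, Ndufb5 and Ndufb7 ran from 0.54 down to 0.30, and Ndufb10 and Ndufb9 stood at -0.02 and -0.04. The N module median was lower, at -0.08, but the ranges of both overlapped. With total reads the medians were 0.60 for the distal arm and 0.10 for the N module, and with the authors' factor 0.85 and 0.35, so the opposite signs rest on the scaling.

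Ndufab1, the mitochondrial acyl carrier protein, also serves fatty acid and lipoic acid synthesis and iron-sulfur cluster assembly, and it binds complex I through Ndufa6 and Ndufb9. It had 1133 reads in diffDC and 971 in maDC, a log2 ratio of -0.34 (interval -0.46 to -0.21) that was 0.10 with the authors' factor. Its binding partners Ndufa6 and Ndufb9 had ratios of -0.46 and -0.04, and with the authors' factor -0.03 and 0.39. None of these genes was called, and the interval of Ndufb9 included 0.

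**Figure D2:**
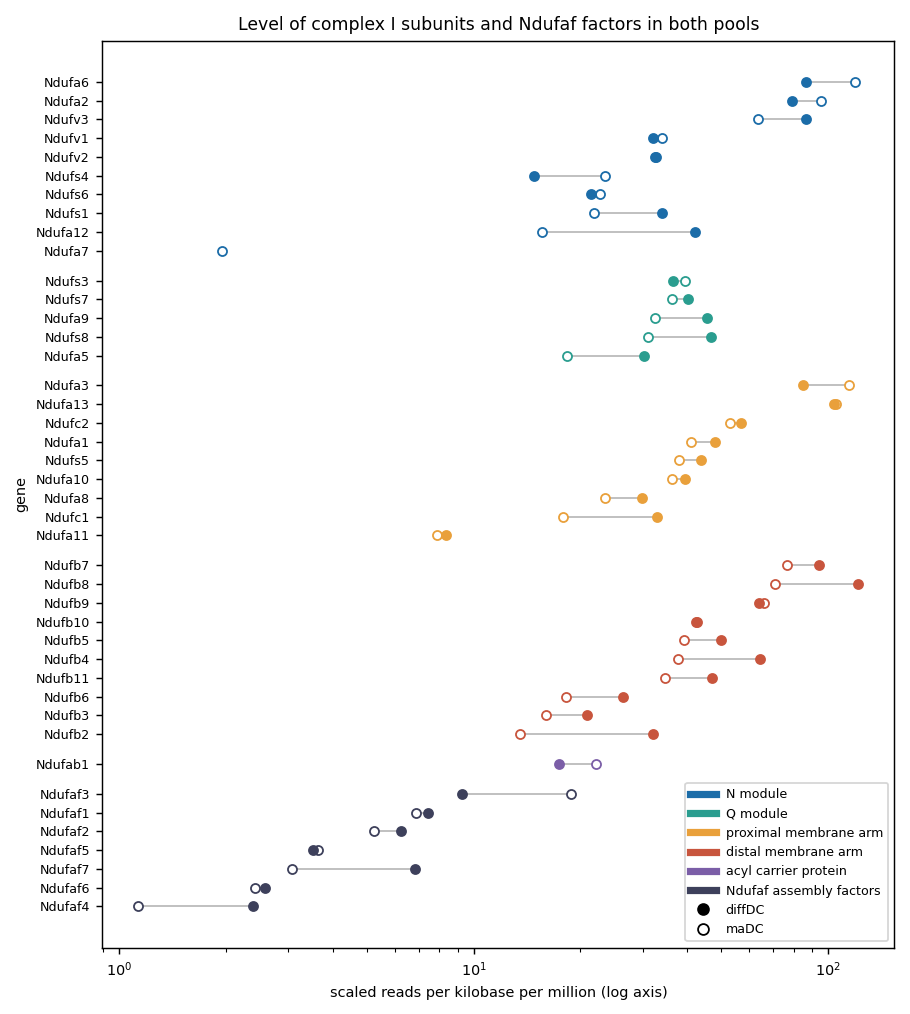
Level of subunits and Ndufaf factors in scaled RPKM (reads per kilobase of the deposited gene length, on TMM-scaled libraries) on a log axis, with diffDC as filled and maDC as open points. Subunits other than Ndufa7 and Ndufa11 lie at 13.5 or above in both pools and the Ndufaf factors at 18.9 or below. Ndufa7 has no diffDC point because it is listed at 0. The deposited length of Ndufa11, 2661 bases, exceeds its 1092 exon bases in GENCODE M21.

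Levels per length kept much of their order between the pools. Across the 35 subunits with reads in both, the Spearman rho of the levels was 0.858 and the Pearson r of log2 levels 0.870, a description over genes that share libraries and lengths. Ndufb8 was the most abundant subunit in diffDC, at 122 scaled RPKM, against 70.8 in maDC. Ndufa6, which led in maDC at 119, stood at 86.4 in diffDC. Module medians of the level in diffDC were 33.2 for the N module, 42.8 for the Q module, 43.8 for the proximal arm and 48.5 for the distal arm, and in maDC they were 28.1, 34.3, 38.0 and 38.5. The Ndufaf factors lay far under these, with a median of 6.24 in diffDC and 3.63 in maDC.

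The roles of assembly factors given here are known mainly from human cells. Of the 7 Ndufaf assembly factors, 2 rose and 1 fell, with a median log2 ratio of 0.12. This share of 42.9% is close to the 44.3% called over all genes, and 8.33% of subunits were called. The rises were those of Ndufaf7 and Ndufaf4. Ndufaf7 (chromosome 17, 78937136 to 78948052), a methyltransferase needed for assembly, had 1362 reads in diffDC and 414 in maDC, 2.23-fold higher (interval 1.99 to 2.49). Ndufaf4 (chromosome 4, 24898083 to 24905001), a chaperone of early assembly, had 828 reads in diffDC and 267 in maDC, 2.10-fold higher (interval 1.83 to 2.42). Ndufaf3 (chromosome 9, 108565537 to 108567434), which binds Ndufaf4 and acts with it on the Q module, had 950 reads in diffDC and 1305 in maDC, 2.03-fold lower (interval 1.86 to 2.21). That fall rests on the scaling, since the log2 ratio of -1.02 was -0.59 with the authors' factor and was then not called. Within a pool no library factor enters, and the spacing of the pair differed there too. Ndufaf3 was 3.91 times as abundant per length as Ndufaf4 in diffDC and 16.7 times in maDC. Its exons share 2.64% of their bases with those of Impdh2 on the other strand.

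The other four assembly factors lay close to 0. Ndufaf1, a chaperone of the membrane arm, had 1014 reads in diffDC and 632 in maDC, a log2 ratio of 0.12. Ndufaf2, a relative of Ndufa12 that holds its place during assembly, had 407 reads in diffDC and 230 in maDC, a ratio of 0.26 (interval 0.02 to 0.50). Of its words, 64.1% are shared with the non-coding gene B230220B15Rik on the other strand, and the sources used here do not state whether counting used the strand. Ndufa12 stood at 6.75 times the level of Ndufaf2 in diffDC and 2.996 times in maDC. Ndufaf5, which hydroxylates Ndufs7, had 421 and 293 reads in diffDC and maDC, a ratio of -0.04, and Ndufaf6 had 267 and 170, a ratio of 0.09. Ndufaf8, the partner of Ndufaf5, stands in the table under the older symbol 1810043H04Rik and so outside the members. It had 610 reads in diffDC and 277 in maDC, a ratio of 0.58.

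The 2-fold limit ran through a continuous range. The 3 called members nearest to it were Ndufa4 at 1.01, Ndufaf3 at -1.02 and Ndufaf4 at 1.07. The 3 nearest that were not called were Ndufc1 at 0.88, Ndufb8 at 0.78 and Ndufb4 at 0.77. For 34 of the 45 members the counting interval excluded no difference, 25 above and 9 below, against 84.6% of all genes.

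Ndufa4 (chromosome 6, 11900292 to 11907497), once counted in complex I and now placed in complex IV, rose 2.02-fold (interval 1.89 to 2.15), with 3831 reads in diffDC and 1287 in maDC. It was no longer called with DESeq2 size factors. Its relative Ndufa4l2, known to be induced by hypoxia, had 3 reads in each pool, at the floor, so no fold is given. AA467197, named after its values were seen and listed by RefSeq as Nmes1, is a further relative whose human counterpart is known to replace NDUFA4 in complex IV during inflammation. It had 781 reads in diffDC and 41353 in maDC, 78.2-fold lower in diffDC (interval 72.9 to 84.0). Per length, Ndufa4 was 6.40 times as abundant as AA467197 in diffDC, whereas AA467197 was 24.6 times as abundant as Ndufa4 in maDC. Cox4i1, a constant part of complex IV, had a log2 ratio of 0.00 (interval -0.03 to 0.03) on the TMM scale and 0.44 with the authors' factor. The ratios of Ndufa4 to AA467197 within a pool do not depend on the library factor.

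**Figure D3:**
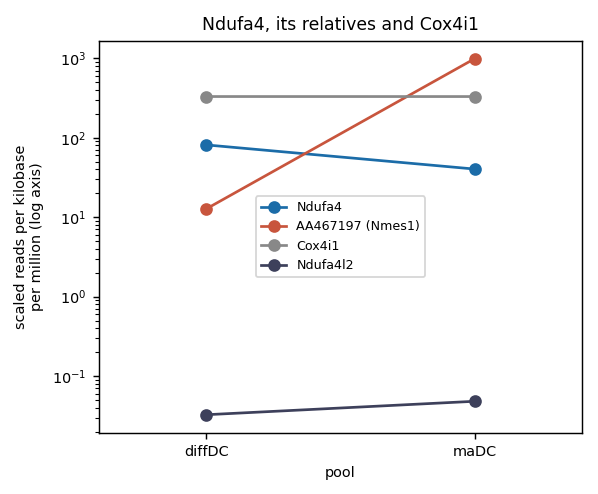
Levels of Ndufa4, AA467197 (Nmes1), Ndufa4l2 and Cox4i1 in diffDC and maDC, in scaled RPKM on a log axis; lines join the 2 pooled values of a gene. The lines of Ndufa4 (81.3 in diffDC, 40.3 in maDC) and AA467197 (12.7 in diffDC, 993 in maDC) cross, and Cox4i1 lies at 330 in both.

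Other genes needed to build complex I were also mostly not called. Of 11 measured assembly factors without the Nduf name, 2 rose and none fell, with a median log2 ratio of 0.36. With the authors' factor 4 of the 11 were higher and none lower, with a median of 0.79. Tmem186, part of a membrane arm assembly complex, had 1655 reads in diffDC and 373 in maDC, a log2 ratio of 1.59. Dmac1, in the table as Tmem261 and also an assembly factor of the membrane arm, was 2.55-fold higher. The lowest was Dmac2, in the table as Atp5sl, at -0.81. Coa1, Ndufb1 and the 7 subunits of mitochondrial DNA were not analysed here. For iron-sulfur cluster assembly, 1 of 14 genes rose and 1 fell, and the median log2 ratio was 0.26. Nfu1, which delivers clusters to target proteins, was 2.10-fold higher, and the scaffold gene Iscu had 3909 reads in diffDC and 7261 in maDC, 2.74-fold lower.

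Of 10 regulators of mitochondrial gene expression, 1 rose and 2 fell, with a median of 0.13. Tfb1m, which modifies mitochondrial ribosomal RNA, had 585 reads in diffDC and 132 in maDC, 3.01-fold higher. The coactivator Ppargc1a had 3.08 reads in diffDC and 30.77 in maDC, a log2 ratio of -3.88 (interval -6.29 to -2.25). Its relative Ppargc1b had 1210 reads in diffDC and 2170 in maDC, 2.65-fold lower, and was not called with the authors' factor. The transcription factors Nrf1 and Gabpa, whose letters were searched above, had ratios of 0.08 and 0.19.

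The other respiratory complexes had few calls each apart from complex II. Median log2 ratios were 0.18 for complex I subunits, 0.23 for complex II with its assembly factors, -0.31 for complex III, -0.04 for complex IV and 0.22 for complex V. With the authors' factor they were 0.61, 0.67, 0.13, 0.40 and 0.66. Calls among complex II genes were 1 higher and 2 lower of 8, Sdhaf4 5.82-fold higher and Sdhaf1 and Sdhaf2 3.19-fold and 2.13-fold lower, all of them assembly factors; Sdhaf2 was not called with the authors' factor. Complex III had 1 rise in 9, Uqcr11 at 2.60-fold, and its lowest value was Uqcrh at -0.95. The complex IV list had 1 fall in 10, Cox5a at 2.17-fold lower, which was not called with the authors' factor. The highest value among these 10 was Cox7b at 0.52. Ndufa4, called higher at 1.01, was not in this list. Cox7a1, also outside the list, was called higher at 2.46, with 114 reads in diffDC and 14 in maDC. Cox7a2l, likewise not in the list, stood at -0.24. Complex V had 1 rise in 15, Atp5g1 at 2.34-fold, and its lowest value was Atp5e at -0.53. With the authors' factor 3 of these 15 were higher.

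Summed reads within a pool were set against those of other lists without a library factor. The sums are not scaled for length and the lists differ in size, so each ratio can be compared only between the pools. The complex IV list is without Ndufa4. Against complex II with its assembly factors, complex I subunits held 2.73 times the reads in diffDC and 2.42 times in maDC. Complex I subunits held 1.38 times the reads of the complex IV genes in diffDC and 1.08 times in maDC, and 2.49 times those of complex III in diffDC and 1.94 times in maDC. Against complex V the ratio was 0.620 in diffDC and 0.652 in maDC. Against 14 genes of general mitochondrial content it was 0.713 in diffDC and 0.778 in maDC. In that list 3 rose and none fell, with a median of 0.34, Phb being 3.54-fold higher and Cs, citrate synthase, lowest at -0.54. With the authors' factor 4 of the 14 were higher and none lower, with a median of 0.77.

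**Figure D4:**
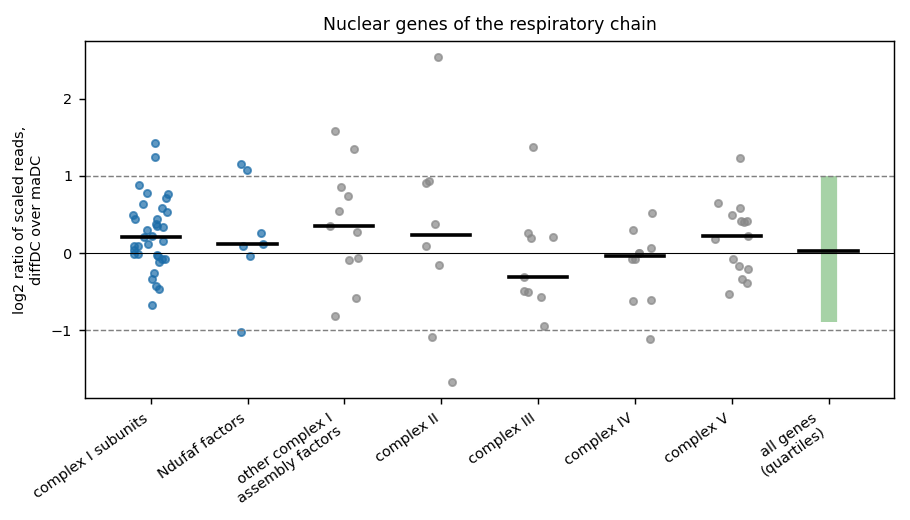
Log2 ratio of scaled reads in diffDC over maDC for nuclear genes of each respiratory complex; each point is a gene, black lines are medians, the green bar spans the quartiles of all genes (-0.90 to 0.998) and dashed lines mark 2-fold. Complex I subunits (35 with reads in both pools, so without Ndufa7) have a median of 0.21 and Ndufaf factors of 0.12, both inside the bar. Ndufa4 is not drawn.

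Cell type markers moved far more than the complex I genes in the same pools, and their part in the complex I values was not tested. Stroma markers rose in 14 of 18 measured genes and fell in 2, with summed reads of 2541 CPM in diffDC and 144 CPM in maDC, Col3a1 at a log2 ratio of 9.44 and Thy1, with 3 reads in diffDC and 21 in maDC, at -3.37 (interval -5.76 to -1.63). Fn1 alone held 137671 of the 228248 summed stroma marker reads in diffDC and 8459 of 9930 in maDC. Macrophage markers rose in 10 of 12, with 21278 CPM in diffDC and 1960 CPM in maDC, Mrc1 highest at 7.07 and Fcgr1 lowest at -0.28. Conventional dendritic cell markers fell in 11 of 12, with 663 CPM in diffDC and 8238 CPM in maDC, Ccr7 lowest at -6.36, while Itgax, the CD11c gene, stood at -0.21. None of these markers was at 0 in either pool. Cell cycle genes rose in 11 of 12, with 1790 CPM in diffDC and 380 CPM in maDC, Ccna2 at 7.85 and Tyms at -0.54. Endothelial markers fell in 4 of 5, with 46.2 CPM in diffDC and 178 CPM in maDC, Cdh5 at -4.04 and Tek at 0.24. Granulocyte markers rose in 2 of 8 and fell in 6, with 24.8 CPM in diffDC and 43.8 CPM in maDC, Mpo at 3.85, Camp, with 1 read in diffDC and 84 in maDC, at -6.95 (interval -12.28 to -4.44), and Ly6g listed at 0 in diffDC. Erythroid and platelet markers rose in 1 of 5, Pf4 at 1.85, and fell in 4, Itga2b at -4.49 and Hbb-bs and Hba-a1 listed at 0 in diffDC, with 145 CPM in diffDC and 46.3 CPM in maDC. Pf4 alone held 12956 of the 13001 summed reads of that list in diffDC and 2442 of 3200 in maDC. Of 6 T, B and NK cell markers, which summed to 43 reads in diffDC and 39.3 in maDC, 1 rose, Klrb1c at 2.14, and 2 fell, among them Ncr1, listed at 0 in diffDC. Cd79a was lowest among those with reads in both pools, at -2.37 with an interval of -5.67 to 0.02. The genes of the series title, Suclg2 and Lactb, had log2 ratios of 3.55 and -2.73, outside the range of all members except Ndufa7.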

How the data were processed

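RNA sequencing of 6 libraries, 3 of diffDC and 3 of maDC, was deposited as 1 table of pooled values. Per the file headers, the authors' table gives a read number per gene and group, a gene length, a log2 ratio, p-values and q-values after Storey. The deposited read numbers carry decimals and were taken to be expected counts (53.6% of genes were whole in both pools, within 0.005, and 32 of 45 members). The submitters' processing notes name GRCm38.p4 and mm10. The aligner, counter, strand setting, test and form of pooling are not given in the sources used here. The authors' deposited log2 ratio column, held here as a score because 1 cell is damaged, served only to find their library factor. The authors' deposited p-value and q-value columns were not used.

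TMM factors (edgeR 4.0.16, R 4.3.3) were taken over all 15282 genes. Exact Clopper-Pearson 95% intervals of the share of a gene's reads, rounded to whole numbers, gave the interval of its ratio, and 0.5 replaced 0. The edgeR quasi-likelihood test and all tests across libraries need values per library and were not run. DESeq2 1.42.0 size factors were an alternative. Levels are reads per kilobase of the deposited length on TMM-scaled libraries (scaled RPKM). Gene positions, overlaps and shared 50-base words came from GENCODE M21, promoter windows from RefSeq on GRCm38.p6. The scaling and calling were run on simulated Poisson reads, which hold counting error alone, so spread between cultures was not tested. Calculations ran in Python 3.11.15 with scipy 1.17.1, numpy 2.4.6 and pandas 2.3.3, figures in matplotlib 3.10.9.

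The members and gene lists were chosen with earlier results of these data known. All members enter the counts and medians, but 1 member and 1 marker gene are not reported by name here; called members and the 3 on either side of the limit are given with their values, and of each other list the largest rise and fall with reads in both pools, with Suclg2 and Lactb from the title. Lists were matched by symbol, older symbol or Entrez identifier. Further genes were chosen after their values were seen.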

Additional observations from a re-analysis of the deposited data

How the results depend on the processing

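Counts of calls moved with both the library factor and the fold limit. With total reads, 6 members were called higher and 1 lower, and 0 assembly factors were lower. The medians were then 0.36 for subunits and 0.31 for assembly factors. Of all 15282 genes, 6906 were called with total reads, 4095 higher and 2811 lower. With the authors' library factor, 11 members were higher and 1 lower (12 in all), 8 subunits were higher (9 called in all) and 0 assembly factors were lower, with medians of 0.61 and 0.55. DESeq2 size factors gave a subunit median of 0.16. Counting only genes of at least 5 CPM left 1 member lower and 0 subunits lower, with 3748 of all genes called, 2073 higher and 1675 lower. The medians were then 0.21 for subunits and 0.60 for assembly factors. Ndufaf2, Ndufaf5 and Ndufaf6 lay under that limit, so the second median rests on Ndufaf7, Ndufaf4, Ndufaf1 and Ndufaf3 alone. With a 1.5-fold limit, 11 members were higher (14 called), and 8 subunits were higher and 2 lower (10 called). At that limit 9038 of all 15282 genes were called, 4733 higher and 4305 lower. Replacing 0 by 1 left the counts and medians of the main setting as they were. Ndufa12, Ndufb2, Ndufaf4 and Ndufaf7 were called higher under all 7 settings, and no called member changed direction. No paired analysis was possible because the table holds 1 pooled value per group, and for the same reason no library could be left out. Members with few reads are limited by depth, among them Ndufaf6, with 267 reads in diffDC and 170 in maDC and an interval of -0.19 to 0.37, and Ndufa4l2, where a difference was not detectable.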

Other observations

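Some complex I genes share a start region with another gene. By GENCODE M21, 16 members lie head to head with a protein-coding gene in the table whose start is on the other strand within 1000 bases, or at most 500 bases inside the member. Of the 16 partners, 5 were called, while 44.3% of all genes were. Cebpz, a nuclear protein gene 70 bases from the start of Ndufaf7, had a log2 ratio of 0.90 beside 1.16 for Ndufaf7. Phf14 had 0.94 beside 1.01 for Ndufa4. Other pairs lay apart, such as Wdr4 at 1.496 beside Ndufv3 at 0.45, Mrpl36, of the mitochondrial ribosome, at 1.298 beside Ndufs6 at -0.08, and Rnf113a1 at -1.41 beside Ndufa1 at 0.23. Rps28 had 27214 reads in diffDC and 16755 in maDC, a ratio of 0.14, while Ndufa7, which starts 10 bases away, was listed at 0 in diffDC. The remaining called partners were Vmac at 1.85 beside Ndufa11 at 0.09 and Tssk6 at -2.75 beside Ndufa13 at -0.02.

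Sequence sharing differed between members. For 20 of the 45 no 50-base word occurred in the transcripts of another gene, and for 10 more than 10% of words did, led by Ndufaf2 (64.1%), Ndufb6 (31.6%, with Smim27) and Ndufa13 (28.5%, mostly with Tssk6). Exons of 19 members overlap those of another annotated gene, and the strand setting of the counting is not known here.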
